A study of Homo sapiens with 28 samples.

Results

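The NIPBL peaks are the places where chromatin immunoprecipitation followed by sequencing (ChIP-seq, in which an antibody recovers cross-linked DNA fragments that are then sequenced) found the cohesin loader in GP5d, a long-established line of human colon adenocarcinoma cells. All rows of both deposited NIPBL peak lists were used, 11694 peaks in the control and 6068 in the siRAD21 list, together 17762 of the 393268 peaks in the series. The control group was transfected with 50 nM of a neutral siRNA, a short duplex without a target, and the siRAD21 group with 50 nM of an siRNA to RAD21, a core subunit of cohesin. Cells of both groups were harvested after 72 h, in 1 NIPBL library per siRNA made with the Bethyl antibody A301-779A. The other 10 targets (RAD21, SMC3, CTCF, H3K4me1, HNF4A, KLF5, JUND, MYC, REST and RFX2) were profiled in the same way. The comparison asks where the loader was found with and without RAD21 siRNA, and what else was found there.

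NIPBL is the large subunit of the complex that puts the cohesin ring, built on RAD21, SMC3 and SMC1A, onto chromatin, and it also stimulates the ring's motor as it extrudes DNA loops. Cohesin accumulates where CTCF, a zinc finger protein, halts it. The loader itself is known mostly from active promoters and enhancers, and its loss of function causes Cornelia de Lange syndrome.

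Both NIPBL libraries carried limits that touch every comparison between them. After filtering of repeated positions the control library held 19926326 tags and the siRAD21 library 7006171, a ratio of 0.352, and the rabbit IgG background libraries held 8916252 and 4101535, a ratio of 0.460. The other libraries held 3629966 to 18867516 tags under control siRNA and 1747770 to 15263937 under RAD21 siRNA. The distance between the tags of opposite strands was 165 bp in the control NIPBL library and 234 bp in the siRAD21 one, against 260 to 345 and 250 to 379 bp in the others. No control NIPBL peak had a false discovery rate (FDR) under 5%, while 1441 of the siRAD21 peaks did. The FDR of the control peaks ran from 7.14% to 32.88% with a median of 32.88%, so many of them may be false calls. The median of the siRAD21 list was 22.4%. A separate siRNA tag on the siRAD21 NIPBL library named RAD21's stem with another number, so its group was taken from the title and the description. The antibody number of the H3K4me1 libraries is known for general histone H3, and that of the MYC libraries for a mouse antibody where the title says rabbit, so values for these targets carry that doubt. Knockdown was not analysed here. Since each target had a sole library per siRNA, no difference could be set against replicates, no test was made, and intervals (95%, Clopper-Pearson for shares) cover counting error only.

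Most control NIPBL peaks had no counterpart under RAD21 siRNA, and most siRAD21 peaks had none under control siRNA. A siRAD21 NIPBL peak overlapped 2036 of the control peaks by at least 1 bp, which is 17.4% (16.7 to 18.1), and these are called kept. The other 9658, or 82.6%, are called lost, meaning only that no peak was listed there. Read from the siRAD21 list, 2046 peaks (33.7%, 32.5 to 34.9) overlapped a control peak and 4022 (66.3%) did not, and the latter are called new. Lost and new peaks were seldom shifted copies of each other. The nearest siRAD21 summit lay a median of 97.6 kb from a lost peak's summit, with 9.10% within 10 kb, and the nearest control summit lay 47.8 kb from a new peak's, with 16.1% within 10 kb.

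Kept peaks were the wide and tag-rich ones of each list. In the control list kept peaks had a median width of 1386 bp (95% interval of the median 1352 to 1409) and lost peaks 987 bp (978 to 996). The median tag count was 99 at kept and 41 at lost peaks, or 4.97 and 2.06 per 1000000 tags of the library. In the siRAD21 list the peaks with a control peak had a median of 1193 bp and 29 tags (4.14 per 1000000), and new peaks 963 bp and 18 tags (2.57 per 1000000). The median fold enrichment, the authors' ratio of tags over the local background, did not separate these classes: it was 5.995 at kept and 6.03 at lost control peaks, and 10.01 at both siRAD21 classes. Kept and lost peaks therefore differed in their extent and tags and not in that ratio.

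Within kept pairs the position of the loader peak moved little. The summits of a pair lay a median of 81 bp apart, and 80.0% of the 2036 pairs lay within 250 bp. The siRAD21 peak of a pair was narrower, with a median width ratio of 0.874, and 31.1% of the pairs were wider after RAD21 siRNA. Per 1000000 tags the median ratio of siRAD21 to control was 0.878, and 37.1% of the pairs were higher after RAD21 siRNA. The fold enrichment went the other way, with a median ratio of 1.69 and 85.6% of the pairs higher, and it divides by IgG libraries of unequal depth.

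The share found again followed the strength of the peak, given as the authors' −10 × log10 p. It was 11.0% of the 8144 control peaks between 50 and 100, 24.5% of 2716 between 100 and 200, 48.1% of 649 between 200 and 400 and 85.4% of 137 between 400 and 800. All 48 control peaks at 800 and above were found again (100%, 92.6 to 100). The siRAD21 list had the same order, from 27.0% of its 4427 weakest peaks over 44.6%, 69.9% and 88.6% to 92.9% of its 14 strongest. Of the siRAD21 peaks with an FDR under 5%, 53.5% had a control peak, against 27.6% of the 4627 others. In the control list the median FDR was 26.8% at kept and 32.88% at lost peaks.

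**Figure D1:**
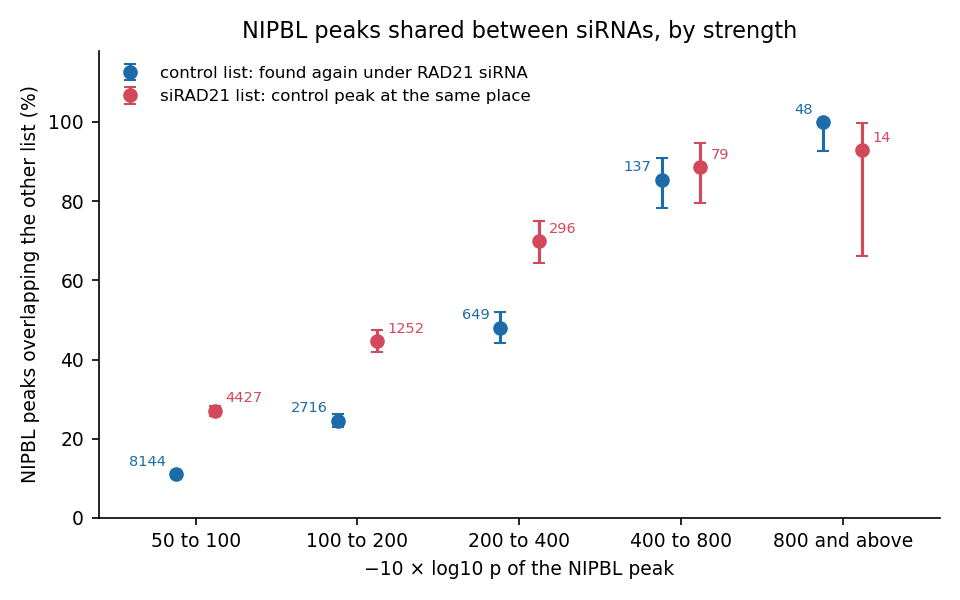
Share of NIPBL peaks (percent, vertical axis) that overlap the other siRNA's NIPBL list, by class of −10 × log10 p (horizontal axis), for the control list (blue) and the siRAD21 list (red), with 95% Clopper-Pearson bars and the number of peaks beside each point. The control points climb from 11.0% in the weakest class to 100% of the 48 strongest peaks.

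The tags of lost and kept control peaks were also scaled to the depth of the siRAD21 library. Multiplied by the depth ratio, the tags of a lost peak came to a median of 14.4, and 21.8% of lost peaks came to fewer than 9 tags, the lowest count in the siRAD21 list. For 34.3% they came to fewer than 11, the 10th percentile of that list. At kept peaks the scaled median was 34.8 tags, and 2.46% came to fewer than 9. Those kept peaks were found again in a list where no peak has fewer than 9 tags. The scaled count can thus lie below the count listed under RAD21 siRNA. How much of the loss came with depth was not tested.

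Cohesin itself was found more often at the lost loader sites than at the kept ones. Under control siRNA a RAD21 peak overlapped 42.3% of lost NIPBL peaks (41.3 to 43.3) and 31.9% of kept ones (29.9 to 34.0). SMC3, the ring's coiled-coil ATPase subunit, was at 48.1% of lost and 38.1% of kept peaks. CTCF was as frequent at lost (25.9%, 25.04 to 26.8) as at kept peaks (25.8%, 23.9 to 27.7). Under RAD21 siRNA the order turned: RAD21 peaks were at 16.1% of the lost and 27.5% of the kept sites, and SMC3 peaks at 11.4% and 14.8%. This was not particular to cohesin, since all 10 targets were then more frequent at kept than at lost sites. JUND was at 18.6% of lost and 67.3% of kept sites, MYC at 9.02% and 48.4%, HNF4A at 12.1% and 28.4%, and CTCF at 20.0% and 23.8%. Kept sites are by definition those with a siRAD21 NIPBL peak.

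The transcription factors divided into those more frequent at kept and those more frequent at lost sites. MYC, a growth regulator that binds promoters widely, had control peaks at 69.1% of kept (67.0 to 71.1) and 45.1% of lost NIPBL peaks (44.1 to 46.1). KLF5, a zinc finger factor of the intestinal crypt, was at 32.6% and 24.7%, JUND, an AP-1 subunit, at 22.1% and 18.1%, and RFX2, a factor of ciliary genes, at 5.89% and 1.84%. HNF4A, a nuclear receptor of intestinal epithelium, was less frequent at kept peaks, at 25.6% against 32.9%. REST, a repressor of neuronal genes, was rare at both, at 1.38% and 1.51%. H3K4me1, a mark of enhancers and promoter flanks, covered 84.5% of kept and 83.0% of lost peaks.

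**Figure D2:**
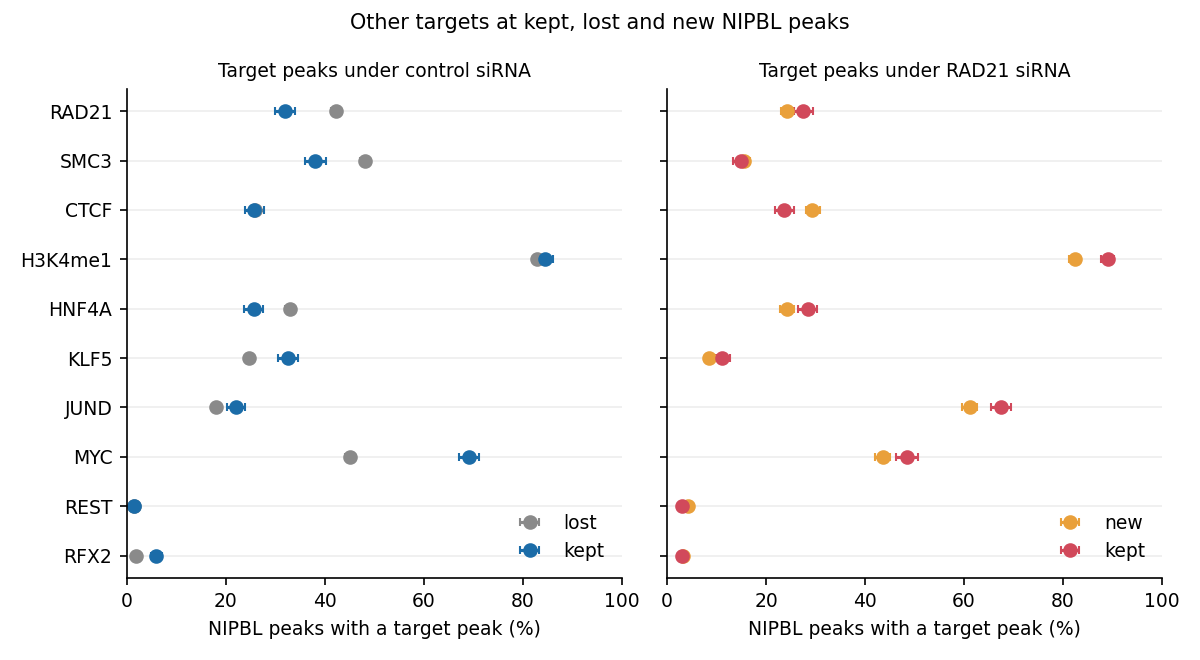
Share of NIPBL peaks (percent, horizontal axis) that overlap a peak of each other target (vertical axis), at left control lists at kept (blue) and lost (grey) control NIPBL peaks, at right siRAD21 lists at siRAD21 NIPBL peaks with a control peak (red, labelled kept) and new ones (orange), with 95% Clopper-Pearson bars. MYC stands furthest to the kept side at left (69.1% against 45.1%), RAD21 and SMC3 to the lost side, and JUND is at 61.2% of new peaks at right.

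Because strong peaks are found again more often, the kept share was also compared between NIPBL peaks with and without a target at like strength, over 5 strata of −10 × log10 p. Peaks with RAD21 were kept 9.20 percentage points less often (difference −9.20, −10.5 to −7.87), peaks with SMC3 by −8.96 and peaks with HNF4A by −8.62 (−10.03 to −7.21). With MYC the kept share was higher by 8.47 points (7.07 to 9.88), and with RFX2, at 298 peaks, by 18.2 (12.8 to 23.6). The intervals of CTCF (−0.494, −1.99 to 1.01), H3K4me1 (−1.23, −2.90 to 0.442), KLF5 (0.896, −0.780 to 2.57) and REST (−1.92, −7.30 to 3.46) included 0. JUND had −1.98 (−3.84 to −0.110) but 3.74 without strata, and KLF5 had 5.85 without strata. NIPBL peaks that held either factor were stronger, with a median −10 × log10 p of 97.8 with and 73.5 without JUND, and 94.6 with and 72.8 without KLF5. When summits within 250 bp defined both overlaps, CTCF came to −3.79 (−5.27 to −2.31), unlike its value by overlap. H3K4me1 likewise came to −7.07 (−8.32 to −5.82) by summits, to −5.33 (−7.12 to −3.53) with strata of width and to −3.52 (−5.68 to −1.37) without CTCF sites, but to 1.62 (−0.174 to 3.41) without strata, so its direction was not settled.

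**Figure D3:**
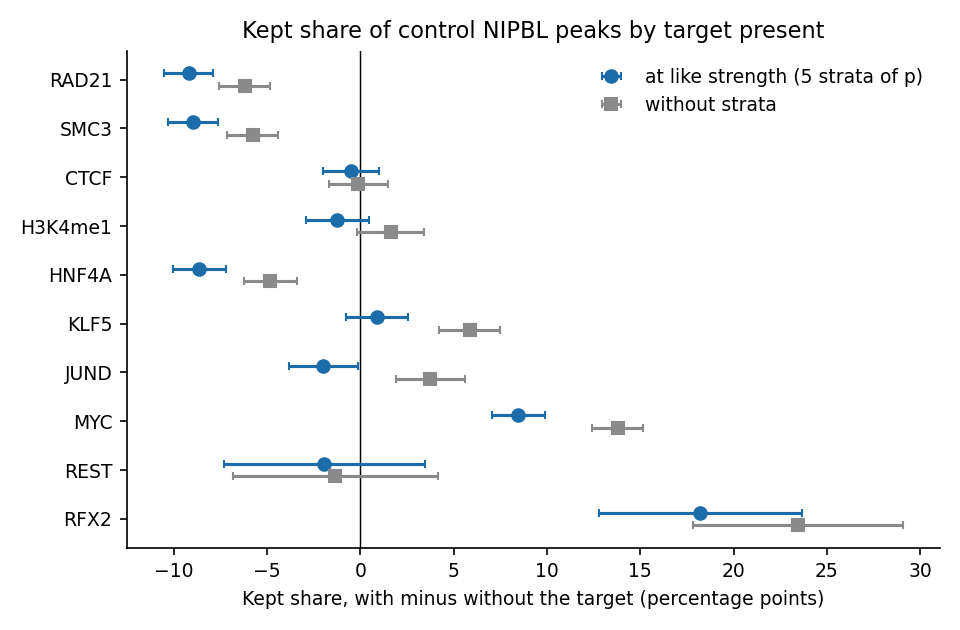
Difference in the kept share of control NIPBL peaks with minus without each target (percentage points, horizontal axis; targets on the vertical axis), at like strength over 5 strata of −10 × log10 p (blue circles) and without strata (grey squares), with 95% intervals for counting error. RAD21 (−9.20), SMC3 and HNF4A (−8.62) lie to the left of 0, and MYC (8.47) and RFX2 (18.2) to the right.

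Over the combinations of MYC, RAD21 and HNF4A the kept share ran from 6.06% to 33.8%. NIPBL peaks with MYC but neither RAD21 nor HNF4A were kept in 33.8% of 2176 cases (31.8 to 35.9). Those with RAD21 but neither MYC nor HNF4A were kept in 6.06% of 1568 (4.93 to 7.36). Peaks with none of these 3 were kept in 13.7% of 2909, and peaks with all 3 in 16.9% of 1273. The RAD21 difference at like strength was −12.2 (−14.4 to −10.1) at MYC-bound peaks and −6.74 (−8.21 to −5.26) at the rest, and the HNF4A difference −14.5 and −3.33. RAD21 and HNF4A each had a smaller difference where the other was present: with HNF4A present RAD21 came to −1.17 (−3.49 to 1.14) and without it to −10.5, and with RAD21 present HNF4A came to −2.05 (−4.18 to 0.0761) and without it to −10.6.

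CTCF sites separated by whether cohesin was listed there. NIPBL peaks with CTCF but without RAD21 and SMC3 were kept in 38.5% of 478 cases (34.1 to 43.0), and those with all 3 in 11.9% of 2235 (10.5 to 13.3). Peaks with none of the 3 were kept in 19.3% of 5012, and peaks with RAD21 and SMC3 but no CTCF in 16.1% of 1717. Within CTCF-bound NIPBL peaks the RAD21 difference at like strength was −19.5 (−23.1 to −15.9), and without CTCF −8.79 (−10.5 to −7.03). MYC peaks were at 61.1% of the CTCF peaks without cohesin and 44.4% of those with RAD21 and SMC3. They were at 38.8% of the peaks with none of the 3, and at 69.4% of those with RAD21 and SMC3 but no CTCF. The MYC share thus did not follow the kept share over these classes, and its part in the differences was not tested.

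The strongest control loader sites had few cohesin peaks under control siRNA and many RAD21 peaks under RAD21 siRNA. The class of 48 peaks at 800 and above was singled out after its values were seen. Under control siRNA 7 of them (14.6%, 6.07 to 27.8) overlapped a RAD21 peak, against 36.7% of the weakest class and 53.2% of the class from 200 to 400. Under RAD21 siRNA 36 of the 48 did (75%, 60.4 to 86.4), against 17.2% of the weakest class. The RAD21 peak was listed under RAD21 siRNA only at 31 of the 48, under both at 5, under control siRNA only at 2 and under neither at 10. SMC3 did not follow, with 7 control and 4 siRAD21 peaks at the same 48 sites. CTCF had 14 and 13, MYC 24 and 18, H3K4me1 28 and 34, and JUND 4 and 19. HNF4A had 0 of 48 under control siRNA, which allows up to 7.40% by the upper Clopper-Pearson bound, and 4 under RAD21 siRNA. Under control siRNA SMC3 was at 14.6% of the 48 and 46.3% of all control NIPBL peaks. Under RAD21 siRNA it was at 8.33% and 11.96%. Low control shares were not particular to cohesin. Over all control NIPBL peaks HNF4A was at 31.6%, and JUND was at 18.8% against 8.33% of the 48. H3K4me1 was at 83.2% against 58.3%, while CTCF (25.9% and 29.2%) and MYC (49.3% and 50%) were not lower at the 48.

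The siRAD21 NIPBL list showed the same from its own side. By rising strength class, siRAD21 RAD21 peaks were at 19.4%, 34.9%, 55.4%, 84.8% and 92.9% of its peaks. Control RAD21 peaks were at 21.5%, 20.9%, 19.3% and 15.2% of the first 4 classes, and at 0 of the 14 in the last (up to 23.2%). Of the siRAD21 RAD21 peaks without a control RAD21 peak, 32.8% of 2706 overlapped a siRAD21 NIPBL peak, against 3.74% of the 17046 with one. At the 48 sites the siRAD21 RAD21 peaks had a median −10 × log10 p of 156.25, against 106.635 over the whole siRAD21 RAD21 list, and a median fold enrichment of 12.1, against 12.7. NIPBL and RAD21 were called against the same rabbit IgG library under each siRNA, and what that shared background gave to this overlap was not tested. With the 48 sites chosen by fold enrichment instead, RAD21 was at 31.2% under control and 58.3% under RAD21 siRNA.

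**Figure D4:**
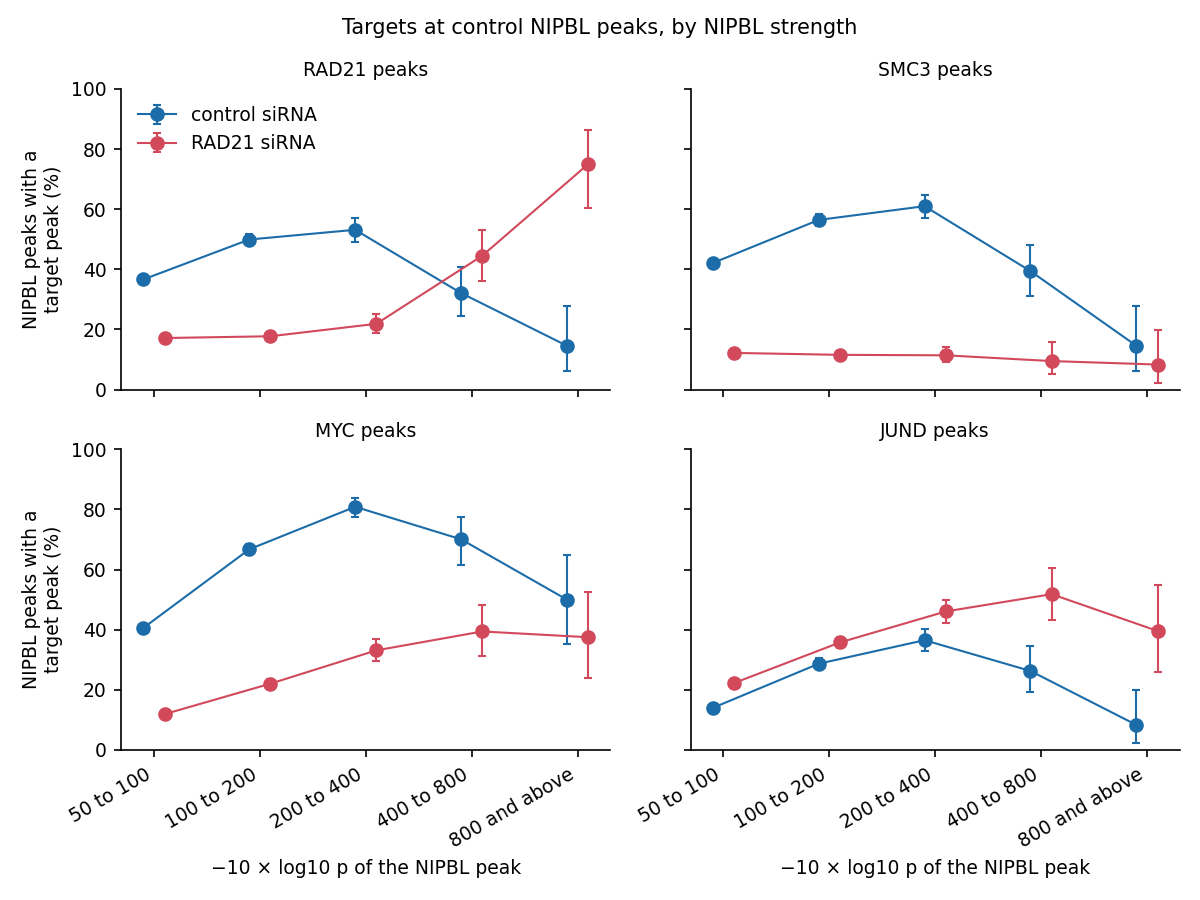
Share of control NIPBL peaks (percent, vertical axes) that overlap a RAD21, SMC3, MYC or JUND peak, by −10 × log10 p class of the NIPBL peak (horizontal axes), for target lists under control siRNA (blue) and RAD21 siRNA (red), with 95% Clopper-Pearson bars. The RAD21 lines cross, from 36.7% and 17.2% in the weakest class to 14.6% and 75% in the strongest, and the SMC3 lines do not.

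New loader peaks lay mostly at sites with H3K4me1 and at sites with JUND in the siRAD21 lists, as did the whole siRAD21 NIPBL list. Over that list H3K4me1 was at 84.7% and JUND at 63.3% under RAD21 siRNA. H3K4me1 covered 82.4% of the 4022 new peaks under RAD21 siRNA and 69.0% under control siRNA. JUND was at 61.2% under RAD21 siRNA (59.6 to 62.7) and 4.67% under control siRNA (4.04 to 5.37). MYC was at 43.6% and 37.9%, CTCF at 29.4% and 22.7%, HNF4A at 24.2% and 8.16%, and RAD21 at 24.3% and 15.6%. SMC3 and KLF5 had lower shares under RAD21 siRNA, at 15.6% against 18.7% and 8.55% against 14.3%. The JUND library had 2.02 times as many tags under RAD21 siRNA as under control siRNA, the highest ratio of the 11 targets, and its list was 2.63 times as long, and the part of this in the JUND shares was not tested.

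Over the whole siRAD21 list JUND and MYC were not more frequent at new than at kept peaks, but this order turned with peak strength. JUND was at 67.5% and MYC at 48.5% of the siRAD21 NIPBL peaks with a control peak, both above their shares at new peaks. In the weakest strength class JUND was at 54.95% of new and 61.1% of kept peaks, and MYC at 36.1% and 40.5%. In the class starting at 100 JUND was at 85.4% of new and 76.2% of kept peaks, and MYC at 72.7% and 57.2%. In the class starting at 200 these shares were 93.3% and 79.2% for JUND, and 83.1% and 65.2% for MYC. Among siRAD21 NIPBL peaks 63.5% were new where both JUND and MYC were listed (2345 peaks) and 71.1% where neither was (1826 peaks), against 66.3% over the list. New peaks had none of the 10 targets under RAD21 siRNA more often than kept sites, at 9.12% against 3.09%. Lost sites had none at 5.96% under control siRNA, where their NIPBL peak was listed, and at 13.9% under RAD21 siRNA. Lost sites went from a median of 3 other targets under control siRNA to 1 under RAD21 siRNA, and new sites had 2 and then 3. Kept control peaks had a median of 3 under both, with a mean of 3.37 and then 3.16. Apart from JUND and REST, the other targets' lists were shorter under RAD21 siRNA, by ratios from 0.229 for KLF5 to 0.877 for H3K4me1. The part of this in the numbers of targets was not tested.

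Compared at like strength of their own peaks, the other targets were found again more often at kept than at lost NIPBL sites, except that the interval for RFX2 included 0. Kept loader sites did not stand above sites without NIPBL for RAD21 (39.7% against 48.0% found again), SMC3 (28.1% against 29.0%) and REST (67.9% against 70.0%), whose strengths were not matched there. Of the control MYC peaks at kept NIPBL peaks 60.1% (57.5 to 62.7) had a siRAD21 MYC peak, against 16.5% at lost NIPBL peaks (15.4 to 17.7) and 28.9% of the whole MYC list. For JUND these shares were 78.5%, 36.1% and 35.1%, for HNF4A 62.6%, 31.5% and 33.4%, and for KLF5 26.4%, 9.27% and 10.2%. At like strength of the target's own peak the difference between kept and lost NIPBL sites was 42.0 points for JUND (37.7 to 46.3), 36.8 for MYC (33.9 to 39.7), 28.4 for HNF4A (24.4 to 32.4) and 15.5 for KLF5 (12.1 to 18.9). It was 16.3 for RAD21, whose shares were 39.7%, 36.6% and 46.6%, and 14.7 for SMC3, with 28.1%, 23.8% and 28.4%. H3K4me1 had 12.6 (93.3%, 88.5% and 74.3%), CTCF 8.53 (5.09 to 11.96), although its unmatched share was lower at kept than at lost sites (68.6%, 71.4% and 63.1%), and REST 15.2 (1.78 to 28.6; 67.9%, 44.5% and 69.1%). RFX2 had 7.60 with an interval from −1.23 to 16.4 (28.1%, 16.9% and 13.2%). All targets with rabbit antibodies shared an IgG library with NIPBL, and the part of this in the joint recovery was not tested. The differences of RFX2 and CTCF, whose background was goat IgG, were the lowest in value. Both of their intervals overlapped that of H3K4me1 (11.2 to 13.9), a target with a rabbit antibody, so this order was not settled.

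As a share of each other target's own list, the loader was most often found with JUND, MYC, KLF5 and HNF4A and least with CTCF and REST. These lists differed in length, with 4678 JUND, 4069 REST and 44027 CTCF peaks under control siRNA. Seen from the control NIPBL list the order was another, with SMC3 at 46.3%, RAD21 at 40.5%, CTCF at 25.9% and JUND at 18.8% of its peaks. A control NIPBL peak overlapped 46.5% of the JUND, 41.5% of the MYC, 38.5% of the KLF5 and 32.6% of the HNF4A peaks. It overlapped 13.7% of the SMC3, 12.8% of the RAD21, 6.80% of the CTCF and 4.28% of the REST peaks. Under RAD21 siRNA NIPBL overlapped 37.4% of the MYC, 31.9% of the KLF5, 30.7% of the JUND and 21.5% of the HNF4A peaks, and 7.72% of the RAD21 and 5.18% of the CTCF peaks.

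Under control siRNA, summit positions placed the loader closest to JUND, KLF5, MYC and HNF4A, then to cohesin, and furthest from REST and H3K4me1. In shared control sites the NIPBL summit lay a median of 105 bp from the JUND, 111 from the KLF5, 113 from the MYC, 115 from the HNF4A, 127 from the RAD21, 130 from the SMC3 and 173 bp from the CTCF summit. RFX2 followed at 189 bp, and REST at 298.5 bp with 47.1% within 250 bp. To H3K4me1 it was 604 bp, with 21.4% within 250 bp. The CTCF summit was within 250 bp at 63.6% of lost (61.6 to 65.5) but 44.0% of kept shared sites (39.7 to 48.4), and the RAD21 summit at 73.1% and 63.5%. For MYC these shares were 74.9% and 75.1%. Kept peaks were also the wider ones, and the part of their width in these shares was not tested. The order of factors before cohesin did not hold throughout the siRAD21 lists. There the median was 119 bp to JUND, 125.5 to MYC, 140 to KLF5, 146 to RAD21, 185 to HNF4A and 192 bp to SMC3. At kept siRAD21 peaks RAD21 was closest, at 100 bp against 113 for JUND.

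Chromosome 19, which is dense in genes, stood apart. There 112 of 426 control NIPBL peaks were kept (26.3%, 22.2 to 30.7), the highest share among the chromosomes with more than 1 peak, and the lowest of these was 12.6% (9.62 to 16.1) on chromosome 8. The number of peaks there went from 426 to 361, a ratio of 0.847 against 0.519 over all, while X, leaving out Y with its 1 peak, had the lowest ratio at 0.351. Chromosome 19 thus held 3.64% of the control and 5.95% of the siRAD21 NIPBL list. At like strength its kept share was 8.11 points (4.22 to 11.99) above the other chromosomes, and 7.46 (3.63 to 11.3) when peaks were also matched by the presence of MYC. The share of the list on chromosome 19 was higher under RAD21 siRNA for all 10 other targets too, by ratios from 1.07 for REST to 1.66 for HNF4A, against 1.63 for NIPBL.

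**Figure D5:**
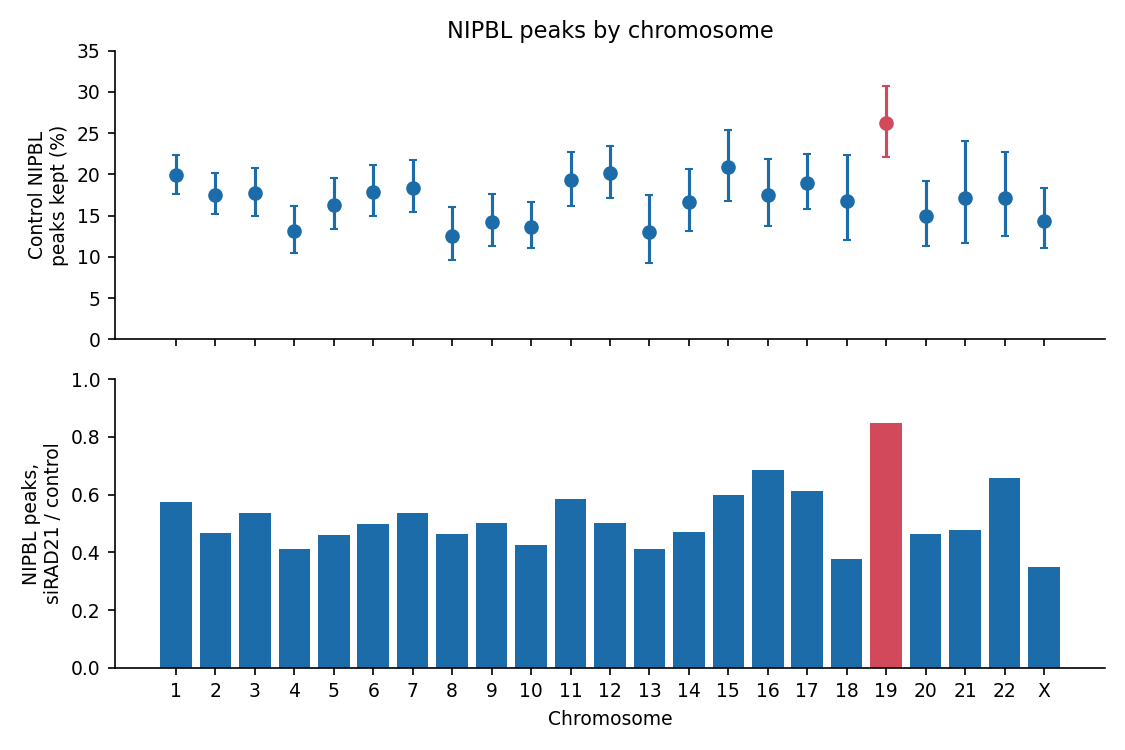
Kept share of control NIPBL peaks by chromosome (percent, upper panel, with 95% Clopper-Pearson bars) and the number of siRAD21 NIPBL peaks over the number of control ones (lower panel, bars from 0), with chromosome 19 in red. Chromosome 19 has the highest value in both panels, 26.3% and 0.847; Y, with 1 control peak, is not drawn.

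Single sites are given as examples, with coordinates in hg18. They were the strongest of their class or had the most targets, and do not stand for the class. The strongest control NIPBL peak spanned 6060 bp on chromosome 2 from 10068287 to 10074346 with 1337 tags and a −10 × log10 p of 2190.48. RAD21, SMC3, H3K4me1, KLF5, JUND and MYC had control peaks there. Under RAD21 siRNA its NIPBL peak was 2706 bp wide with 90 tags and 201.88, and RAD21, H3K4me1, HNF4A, JUND and MYC were listed. By contrast, the second strongest, on chromosome 12 from 108920692 to 108921656, had 331 tags and 1942.55 and no other target under control siRNA. Under RAD21 siRNA it had 108 tags and 659.8, with RAD21, H3K4me1 and JUND. The third, on chromosome 1 from 153175143 to 153177075, had 539 tags and MYC alone under control siRNA, and 158 tags with RAD21, CTCF, H3K4me1, JUND and MYC under RAD21 siRNA.

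The next 3 kept sites differed in their company. The one on chromosome 19 from 60369029 to 60370693 had 306 tags and 8 other targets under control siRNA, all but HNF4A and REST, and 81 tags with RAD21, CTCF, H3K4me1 and RFX2 under RAD21 siRNA. The one on chromosome 17 from 70021446 to 70023178 had RAD21 alone under both siRNAs, with 529 and 109 NIPBL tags. The one on chromosome 7 from 92698592 to 92700376 had 373 and 114 tags, CTCF, H3K4me1, JUND and MYC under control siRNA, and RAD21, SMC3, H3K4me1, HNF4A, JUND and MYC under RAD21 siRNA. RAD21 was thus listed under RAD21 siRNA at all 6 and under control siRNA at 3. Over all kept control peaks these shares were 27.5% and 31.9%. Among kept peaks with the most targets, the chromosome 19 site was joined by a site on chromosome 17 from 72793274 to 72796846 and another on chromosome 1 from 200341191 to 200344927, both with 8 targets under control siRNA and with 3 and 5 under RAD21 siRNA.

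Of the 9491 lost peaks without a siRAD21 NIPBL peak within 1000 bp, the strongest lay on chromosome 17 from 38369003 to 38370606, with 158 tags and 707.65. RAD21, SMC3, H3K4me1, JUND and MYC were there under control siRNA, and H3K4me1 and MYC under RAD21 siRNA. The second, on chromosome 1 from 152657077 to 152658504 with 197 tags, went from SMC3, H3K4me1, HNF4A, KLF5, JUND and MYC to H3K4me1 alone. A site on chromosome 7 from 20225060 to 20226865, with 172 tags, and another on chromosome 9 from 128149773 to 128152463, with 260, each went from 6 targets to 3. Both had RAD21, SMC3, H3K4me1, HNF4A and MYC under control siRNA, and neither had RAD21 or SMC3 under RAD21 siRNA. The other 2 of the 6 were unlike these. On the X chromosome from 52980078 to 52981658, with 209 tags, RAD21, SMC3, CTCF and MYC were listed under both siRNAs though the loader was not. On chromosome 1 from 205392618 to 205393825, with 168 tags, no other target was listed under either siRNA.

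Of the 3882 new peaks without a control NIPBL peak within 1000 bp, the strongest was on chromosome 7 from 21951783 to 21952838, with 99 tags, 944.95 on the −10 × log10 p scale and a fold enrichment of 80.06. H3K4me1 alone was there under control siRNA, and RAD21, JUND and MYC as well under RAD21 siRNA. The site on chromosome 14 from 38805549 to 38806911, with 68 tags, had H3K4me1 and HNF4A under control siRNA and RAD21, SMC3, JUND and MYC in addition under RAD21 siRNA. The site on chromosome 1 from 153798918 to 153800227 held 65 tags and that on chromosome 19 from 19163360 to 19164747 held 59, and they had no other target under control siRNA and 3 and 6 under RAD21 siRNA. The site on chromosome 20 from 35240619 to 35241735, with 79 tags, kept its CTCF and H3K4me1 peaks and had RAD21, JUND and MYC besides. All 6 new sites had RAD21, JUND and MYC under RAD21 siRNA, and 1 of them, on chromosome 14 from 20641228 to 20642796, had RAD21 under control siRNA. Over all new peaks RAD21 was at 24.3%, JUND at 61.2% and MYC at 43.6% under RAD21 siRNA.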

How the data were processed

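The authors called peaks per library with MACS 1.4.0rc2, as the file headers state, after processing with CASAVA 1.4 and BWA on hg18, per the submitters' processing notes. Each target was called against the IgG of its siRNA and antibody host, goat for CTCF and RFX2 and rabbit for the others, with a p cutoff of 1e-05, an effective genome size of 2.75e+09 and 1 tag kept per position, per the file headers. Per the file headers, each peak has a count of tags, a −10 × log10 p (50 and above) and a fold enrichment as a linear ratio. An unnamed column of the deposited files was read as FDR in percent, since counting its values under 5 gave the labelled number of such peaks in 22 of 22 libraries. The deposited control NIPBL list has no peak with an FDR under 5%, so all deposited peaks were used.

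Overlaps, shares and Mantel-Haenszel differences (5 strata of about equal size) were computed with Python 3.11.15, pandas 2.3.3 and scipy 1.17.1 and tested on simulated data. Tags per 1000000 used the headers' tags after filtering. The regions named were the 6 strongest kept, the 6 strongest lost and the 6 strongest new NIPBL peaks (the last 2 sets with no NIPBL peak of the other list within 1000 bp) and the 3 kept with most other targets. Chromosome 8 and unplaced sequences (10 control and 2 siRAD21 peaks) were left out of the naming. Members, classes and comparisons were chosen with earlier results of these data known. No hg18 annotation was used here, so regions carry no gene names or sequence. IgG peaks were not analysed here. Alternatives were the overlap rule, p limits, equal list lengths, the FDR limit and other strata.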

Additional observations from a re-analysis of the deposited data

How the results depend on the processing

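With 1 library per target and siRNA, depth and the siRNA cannot be told apart, and no replicate could be left out. No paired analysis was possible because each target had 1 library per siRNA. Overlap of at least 50% of the shorter peak moved no share beyond its interval. With summits within 250 bp the kept share was 13.98%, the siRAD21 share with a control peak 26.9%, the chromosome 19 kept share 21.1% and the MYC difference 6.42. With equal numbers of the strongest peaks (6068 in each list) both shares were 24.3% and 24.4%. The siRAD21 share was 36.4% with −10 × log10 p of at least 100 in both lists and 53.5% with an FDR under 5%. Without strata the differences were −6.20 for RAD21, −4.82 for HNF4A and 13.8 for MYC. With strata of fold enrichment they were −6.63, −4.89 and 13.4. The sign turned for H3K4me1 without strata (1.62) and by fold (1.48), for JUND likewise (3.74 and 3.36) and for KLF5 by summits (−0.623), and the cause was not tested. RAD21 peaks of at least 100 were at 25.5% of lost, 16.9% of kept and 10.2% of new NIPBL peaks (control lists), MYC peaks at 20.3% of lost and 45.2% of kept, and siRAD21 JUND peaks at 38.7% of new. NIPBL peaks of at least 100 had median widths of 1462 (kept), 1225 (lost), 1356 (kept, siRAD21 list) and 1304 bp (new), and 6.12, 3.16, 6.28 and 4.57 tags per 1000000. Their MYC summits were within 250 bp in 77.7%. The following were chosen after seeing the data. With strata of width the RAD21 difference was −6.95, and without CTCF sites the HNF4A difference was −10.4. RAD21 peaks of at least 100 were at 56.2% of the 48 strongest control NIPBL sites under RAD21 siRNA, and by fold enrichment the RAD21 shares were 31.2% (control siRNA) and 58.3% (RAD21 siRNA). RAD21, SMC3, CTCF, HNF4A, MYC, REST and RFX2 held their sign under every alternative run.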

Other observations

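The siRAD21 peaks of other targets differed in how often they met the loader, according to whether the target had a control peak at the same place. For SMC3, 26.9% of the 1465 siRAD21 peaks without a control SMC3 peak overlapped a siRAD21 NIPBL peak (24.6 to 29.2), against 4.69% of the 11083 with one. For CTCF the shares were 14.4% of 4154 and 3.81% of 28042, for REST 11.5% of 1508 and 1.93% of 2852, and for HNF4A 28.6% of 3352 and 15.2% of 3730. MYC, KLF5 and RFX2 had the opposite order, with 26.0% of 3275 and 46.8% of 3989 for MYC, 24.7% and 40.8% for KLF5, and 11.2% and 33.2% for RFX2. JUND had nearly equal shares, 30.6% of 10676 and 31.6% of 1643, and H3K4me1 8.58% and 10.8%.

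The kept share of control NIPBL peaks did not climb steadily with the number of other targets at the site. It was 12.5% of the 658 peaks with none, 22.4% of 1982 with 2, 13.8% of 2094 with 4 and 20.9% of 907 with 6, while the median −10 × log10 p went from 60.4 with none to 106.65 with 6. At 8 targets it was 29.8% of 84 (20.3 to 40.7), and none of the 3 peaks with 9 was kept.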
